A study of Homo sapiens with 12 samples.

Results

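The insulin-like growth factor (IGF) system was followed through 10 genes: the growth factor gene IGF2 and its neighbour H19, the receptor genes IGF1R and IGF2R, and IGFBP1 to IGFBP6, which encode the IGF-binding proteins. Each gene was found by its symbol in the RefSeq count tables, and all 10 were listed among 25718 gene symbols. For a gene with several transcripts, the transcript was selected on its mean count over the 12 samples. Counts were obtained for 9 of the 10 genes, and 6 passed the filter on low counts (a mean above 10 counts over the 12 samples), as did 11451 genes in all. IGF2 was measured lower after doxycycline in an earlier look at these data and the other genes were gathered around it, so its values are described here with no test. The other 5 genes above the filter (H19, IGF2R, IGFBP2, IGFBP4 and IGFBP5) were tested as part of the fit over all genes.

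The samples were cells of the established line H9, which derives from a human embryo and is pluripotent, carrying a lentiviral vector from which doxycycline switches on miR-10a together with GFP or miR-10b together with GFP. The vector was applied at a multiplicity of infection of 50, and all cells were patterned towards ventral midbrain and harvested on day 14. The miR-10a doxycycline and miR-10b doxycycline groups received doxycycline from day 11, and the miR-10a control and miR-10b control groups were the same transduced cells without it, with 3 samples in each group. All 4 groups therefore carry a vector, an effect of doxycycline itself cannot be told apart from that of the microRNA, and a difference between the vectors cannot be told apart from one between the transduced cultures. The cells had been expanded on mouse feeder cells before differentiation. The sample labels do not say whether the replicates were separate cultures, so the p-values measure only the spread between these samples, which may be technical.

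IGF2 is a secreted growth factor of the embryo that signals through the receptor tyrosine kinase IGF1R and the insulin receptor to the PI3K-AKT and RAS-MAPK pathways. The IGF-binding proteins hold IGFs in the extracellular space and modulate their access to the receptor, and IGF2R takes IGF2 up for degradation in lysosomes. IGF2 and H19 are imprinted neighbours, IGF2 being read from the paternal and H19, a long non-coding RNA, from the maternal chromosome. microRNAs of the miR-10 family lie in the HOX clusters and pair through their seed, near the 5′ end, with matches in the 3′UTRs of mRNAs. The comparisons address which genes change when either microRNA is induced in midbrain-patterned progenitors.

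The mature sequence of miR-10a-5p, as RefSeq gives it (GRCh38.p14, chr17:48579904-48579926, minus strand), is shown with its seed, bases 2 to 8, in capitals, because the matches below are read from it:
hsa-miR-10a-5p: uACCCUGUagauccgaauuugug

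In the longest 3′UTR annotated for each protein-coding member (GENCODE 44 on GRCh37, read on the strand of the transcript only), the full match to the seed followed by A (8mer, ACAGGGTA) was found in no member. The match to the whole seed without that A (7mer-m8, ACAGGGT) and the match lacking its first base but followed by A (7mer-A1, CAGGGTA) were found in IGF2R, IGF2 and IGF1R. Each 8mer holds both shorter matches and was counted once, as an 8mer. The 6 matches are the sites at which the members could pair with the seed, and they are printed from 5′ to 3′ on the transcript with the match in capitals, beside the GRCh37 position of the capitals:
IGF2R, 7mer-m8, chr6:160526764-160526770, plus strand: cacatacgtgcACAGGGTccccgagtgcc
IGF2R, 7mer-m8, chr6:160529902-160529908, plus strand: ttttaatagcgACAGGGTttcaccgtgtt
IGF2R, 7mer-m8, chr6:160530342-160530348, plus strand: ggttgctagagACAGGGTggagcacagag
IGF2R, 7mer-A1, chr6:160532392-160532398, plus strand: ctcagcctactCAGGGTAaagacaaggat
IGF2, 7mer-A1, chr11:2153566-2153572, minus strand: acgggaattttCAGGGTAaactggccatc
IGF1R, 7mer-A1, chr15:99503783-99503789, plus strand: gtgcgaatcccCAGGGTAaaggcgtgggg

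IGF2R had 4 such matches in 6420 nt of 3′UTR, and IGF2 and IGF1R had 1 each in 3875 and 7088 nt. IGFBP4 and IGFBP5 had only the 6-base match shared by all these motifs (CAGGGT, the 6mer), 1 in IGFBP4 and 2 in IGFBP5. The letters were not found in the 3′UTRs of IGFBP1, IGFBP2, IGFBP3 and IGFBP6, and H19, which encodes no protein, has no 3′UTR. Over all tested genes for which GENCODE gives a 3′UTR (9260), 2.59% had an 8mer as their best match, 13.7% a 7mer-m8, 4.81% a 7mer-A1 and 19.6% a 6mer, and 21.1% had an 8mer or a 7mer of either kind. A match describes the sequence and does not show that the microRNA binds there. All matches are to the seed of miR-10a-5p. The miR-10b-5p sequence was not read here, so changes with miR-10b are set beside matches to the miR-10a-5p seed.

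**Figure D1:**
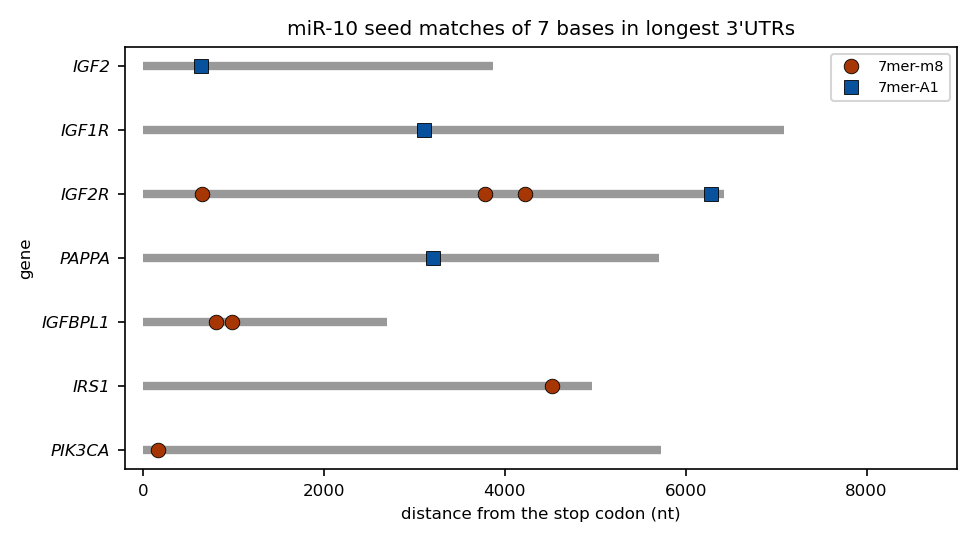
Matches of 7 bases to the miR-10 seed (7mer-m8 as circles, 7mer-A1 as squares) along the longest annotated 3′UTR (grey bars) of 7 genes of the IGF system. The horizontal axis is the distance from the stop codon in nt. IGF2, IGF1R and IGF2R are members, and PAPPA, IGFBPL1, IRS1 and PIK3CA are drawn because they fell with miR-10b. Other genes of the system with a match that were not called with miR-10b are not drawn, nor is LIN28A, which fell and has 1 match. IGF2R carries 4 matches, IGFBPL1 carries 2 and the other 5 genes carry 1 each.

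Sequencing gave between 10545487 and 14165426 counts per sample, so that 3 counts, taken here as the lowest number that counts as detected, correspond to 0.212 to 0.284 CPM (counts per 1000000 counts of the sample). Induction was seen at the hairpin genes: MIR10A had 711 to 731 CPM in the miR-10a doxycycline samples and 0.641 to 1.37 in their controls, and MIR10B had 2541 to 2662 CPM in the miR-10b doxycycline samples and 2.89 to 4.45 in theirs. These are reads of polyadenylated RNA over the hairpin and not the mature microRNA. The progenitor markers SOX2, NES, VIM, FABP7, MSI1 and HES5 all passed the filter, with a summed level of 10310 to 12040 CPM, and 7 of 8 floor plate markers passed it, with 1320 to 1937 CPM. Markers of other cells were lower. The sum was 551 to 620 CPM over 6 neuron genes and 171 to 405 CPM over 11 mesenchymal and vascular genes. It was 4.98 to 14.9 CPM over 8 endoderm and yolk sac genes, with APOA2 at 0 in every sample. The 5 pluripotency genes had a sum of 102 to 155 CPM, although only 1 of them (DPPA4) passed the filter and NANOG was at 0 in every sample. Of these 5 genes, 3 have several transcripts, and such a gene can be counted too low. Replicate 2 of the miR-10b doxycycline group stood apart from the other replicates of its group: chi-square per degree of freedom between replicates was 3.17 and 4.11 for its 2 pairs and 1.22 to 1.93 for the other 10 pairs, so the calls of members and list genes that change without it are named beside them. In bulk samples, fewer cells of a type and less RNA per cell cannot be told apart.

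Because reads shared by several transcripts appear to have been left out of the counts, a gene with several RefSeq transcripts can be counted far below its true level. IGF2 (5 transcripts), IGF1R (2) and IGFBP3 (2) are the members concerned. IGF1R, the signalling receptor, had 2 counts in all, both in miR-10a control replicate 2, and IGFBP3, a major carrier of IGFs in serum, had 0 counts in all 12 samples. For IGFBP3 this allows up to 0.212 to 0.284 CPM per sample for reads that fit only 1 transcript, and a low count of either gene is not evidence of low expression. IGFBP1, a binding protein best known from liver and decidua, and IGFBP6, which prefers IGF2 over IGF1, each have a single transcript and were low by direct measurement. IGFBP1 had 1 count in 12 samples. IGFBP6 had 33 counts, with 1 to 8 per sample, and its summed level was 0.149 CPM (95% exact Poisson interval 0.0482 to 0.347) with and 0.358 (0.196 to 0.601) without doxycycline in miR-10a cells, and 0.141 (0.0456 to 0.328) with and 0.228 (0.104 to 0.434) without it in miR-10b cells. The intervals overlap for each vector, and no fold change is given at this depth. Such intervals and detection limits cover counting error only.

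Per length of transcript, the 5 measured members with a single transcript fell into an order that was the same in every sample. IGFBP2, which is abundant in developing brain, was highest at 433 CPM per kb (379 to 499 over the 12 samples). IGF2R followed at 80.7 CPM per kb (77.3 to 83.7) and IGFBP5, a binding protein that also attaches to the extracellular matrix, at 54.9 (48.2 to 59.0). IGFBP4, an inhibitor of IGF action, had 22.3 CPM per kb (19.4 to 25.2), and H19 had 7.56 (5.30 to 10.7). No ranges of neighbours in this order overlapped. Among 8221 tested genes with a single transcript, IGFBP2 stood at the percentile 98.8 of mean level per length, IGF2R at 90.0, IGFBP5 at 83.5, IGFBP4 at 61.1 and H19 at 38.4.

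**Figure D2:**
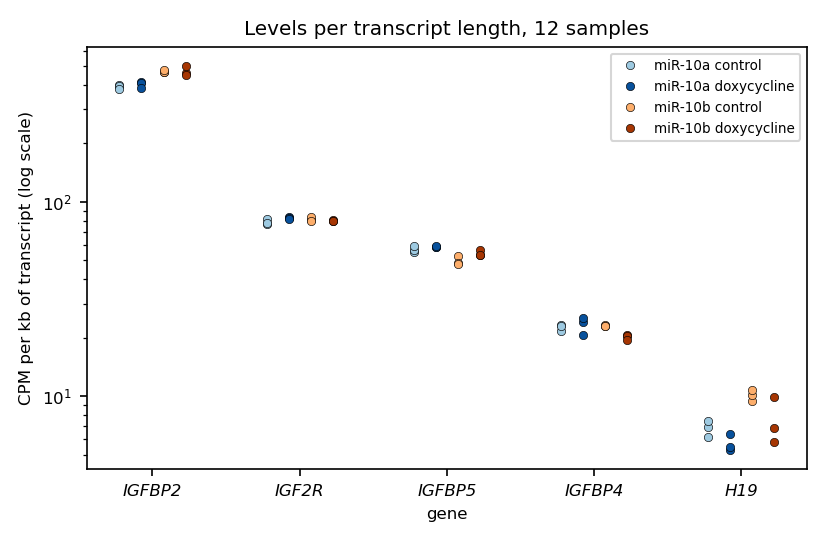
Level per transcript length of the 5 measured members with a single transcript, in CPM per kb on a log scale; each point is a sample and colours give the 4 groups. IGFBP2 lies highest (379 to 499) and H19 lowest (5.30 to 10.7), and the points of different genes do not overlap.

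IGF2 lies on chromosome 11 (GRCh37, chr11:2150342-2179621, minus strand), 125 kb from H19 (chr11:2016396-2025782, minus strand). Its transcript NM_000612 had 3 to 17 counts per sample, a mean just above the filter, and 4 further counts fell on another of its transcripts. The doxycycline samples had 3 to 10 counts and the controls 10 to 17, so IGF2 passed the filter only through the control groups. In miR-10a cells the 3 doxycycline samples had 0.272, 0.662 and 0.284 CPM and the 3 controls 0.804, 1.06 and 0.881 CPM. In miR-10b cells the doxycycline samples had 0.673, 0.858 and 0.665 CPM and the controls 1.19, 1.26 and 1.28 CPM. Each control sample lay above all doxycycline samples of its vector, and the miR-10b control lay above the miR-10a control. The groups' summed counts were 14 with and 36 without doxycycline for miR-10a, and 26 with and 49 without it for miR-10b. Scaled to depth, the summed level with miR-10a was 0.416 CPM (95% exact Poisson interval 0.227 to 0.698) with and 0.921 (0.645 to 1.28) without doxycycline. With miR-10b it was 0.731 (0.478 to 1.07) with and 1.24 (0.92 to 1.64) without doxycycline. The intervals overlap for each vector. The fitted log2 fold changes were -1.13 (SE 0.40) with miR-10a and -0.76 (SE 0.32) with miR-10b, given as a description because this drop led to the choice of the gene. A single library decides much of the first value: it was -1.69 without miR-10a doxycycline replicate 2 and -0.91 without replicate 1. The antisense transcript IGF2-AS, the read-through gene INS-IGF2 and the hairpins MIR483 and MIR675, which lie within IGF2 and H19, had 0 counts in every sample. IGF2-AS and INS-IGF2 have 2 transcripts each, and INS-IGF2 and the hairpins overlap other genes, so their reads can be shared and left out. These counts of 0 are therefore not evidence of no expression.

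H19 fell with doxycycline in miR-10b cells and differed between the vectors' controls. Its single transcript had 12.2, 14.8 and 12.6 CPM in the miR-10a doxycycline samples and 16.1, 17.2 and 14.3 CPM in the miR-10a control. In miR-10b cells the values were 15.9, 22.8 and 13.4 CPM with doxycycline and 21.8, 23.5 and 24.8 CPM without it. The doxycycline and control samples overlapped for either vector, in miR-10b cells only through replicate 2 of the doxycycline group, which was higher than a control sample. The log2 fold change was -0.43 (SE 0.11, edgeR quasi-likelihood test, Benjamini-Hochberg adjusted p = 0.0061) with miR-10b and -0.26 (SE 0.13, adjusted p = 0.44) with miR-10a, and the difference of the effects was -0.17 (SE 0.17, adjusted p = 0.73). Without miR-10b doxycycline replicate 2 the fall was -0.67, and without replicate 3 it was -0.27 and no longer past the threshold (adjusted p = 0.081); DESeq2 gave -0.45 with an adjusted p of 0.068. Over all alternatives the adjusted p ran from 1.1e-06 to 0.081. Between the controls H19 was 1.47-fold higher with the miR-10b vector (15.9 ± 1.49 and 23.4 ± 1.52 CPM, SD, n = 3 each, edgeR adjusted p = 0.00035), with no overlap of samples.

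**Figure D3:**
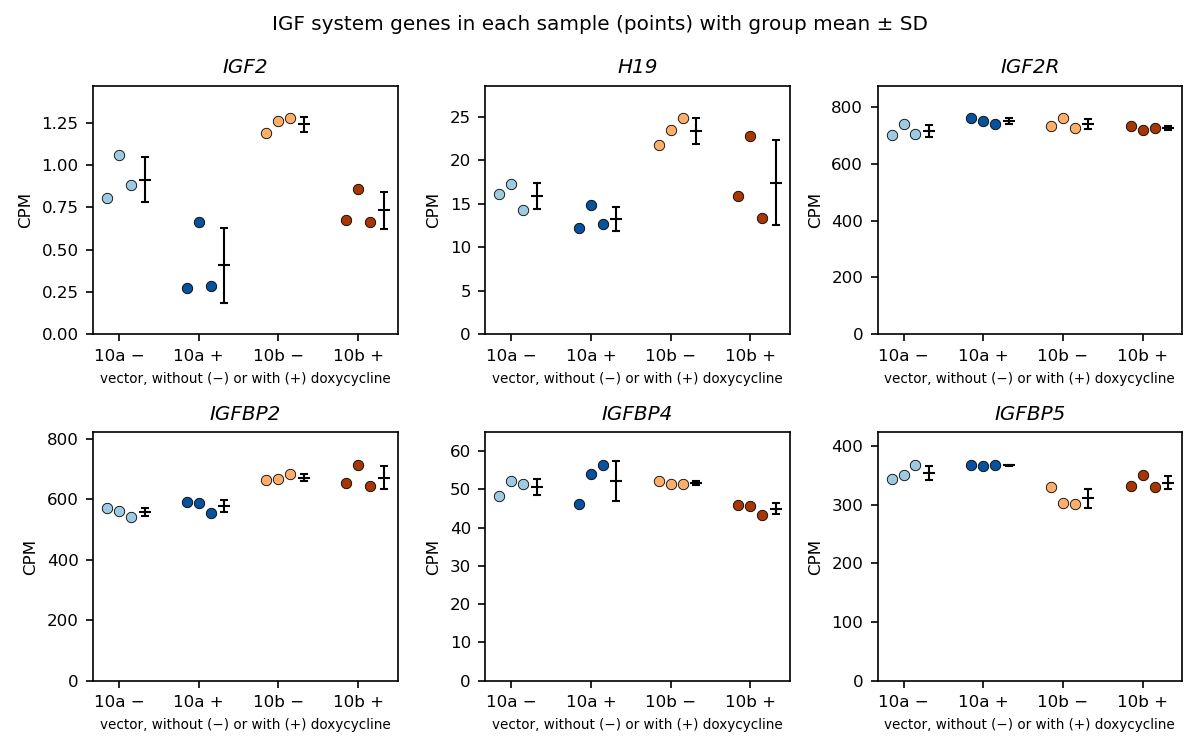
CPM of the 6 members above the filter in each of the 12 samples (points) with the group mean ± SD (n = 3) beside them; groups on the horizontal axis are the vector without (−) or with (+) doxycycline, and each vertical axis starts at 0. H19 is highest in the miR-10b control (21.8 to 24.8 CPM), IGFBP2 lies higher with the miR-10b vector, and IGF2R lies between 703 and 761 CPM throughout.

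IGF2R, the receptor that clears IGF2 (chr6:160390114-160534539, plus strand), kept a narrow range although it carries the most seed matches of the members. The miR-10a doxycycline samples had 761, 753 and 740 CPM and the miR-10a control 703, 741 and 707 CPM. With miR-10b the doxycycline samples had 733, 722 and 727 CPM and the control 735, 761 and 726 CPM. Doxycycline and control samples overlapped for each vector. The log2 fold change was 0.07 (95% interval 0.0093 to 0.13, edgeR adjusted p = 0.36) with miR-10a and -0.03 (-0.085 to 0.033, adjusted p = 0.63) with miR-10b. These intervals, here and below, are normal intervals around the fitted value, not adjusted for the number of genes, and for IGF2R mRNA with miR-10b the lower bound lies at -0.085. The level of the protein was not measured.

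Among the binding proteins, IGFBP2 differed between the vectors and not detectably with doxycycline. IGFBP2 (chr2:217497551-217529159, plus strand) lies 7.67 kb from IGFBP5 (chr2:217536828-217560272, minus strand), and the genes point towards each other. The miR-10a doxycycline samples had 589, 587 and 554 CPM of IGFBP2 and the miR-10a control 569, 561 and 541 CPM. The miR-10b doxycycline samples had 654, 713 and 643 CPM and the miR-10b control 663, 665 and 683 CPM. All 6 samples with the miR-10b vector thus lay above all 6 with the miR-10a vector. Between the controls the log2 difference was 0.27 (SE 0.035, edgeR adjusted p = 2.6e-07), while doxycycline gave 0.05 (95% interval -0.019 to 0.12, adjusted p = 0.65) with miR-10a and -0.001 (-0.069 to 0.067, adjusted p = 0.99) with miR-10b.

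IGFBP5 moved the opposite way between the vectors. Its miR-10a doxycycline samples had 368, 366 and 368 CPM and the miR-10a control 345, 351 and 368 CPM. With miR-10b the doxycycline samples had 332, 351 and 331 CPM and the control 330, 304 and 301 CPM, with no overlap, although the nearest values differed by less than the spread within the control. The miR-10b control was lower than the miR-10a control (log2 difference -0.19, SE 0.036, edgeR adjusted p = 0.00019). With miR-10b, doxycycline raised IGFBP5 by 8.63% (log2 fold change 0.12, SE 0.036, adjusted p = 0.021). That call was lost under DESeq2 (0.10, adjusted p = 0.072), in a fit of the miR-10b samples alone (adjusted p = 0.060), and without miR-10b doxycycline replicate 2 (0.09, adjusted p = 0.082), replicate 2 of its control (0.10, adjusted p = 0.12) or replicate 3 of its control (0.10, adjusted p = 0.14), in a range over all alternatives from 0.0034 to 0.14. With miR-10a the log2 fold change was 0.05 (SE 0.036, adjusted p = 0.65).

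IGFBP4 was lower with doxycycline in miR-10b cells. This gene (chr17:38599702-38613977, plus strand) had 46.0, 45.6 and 43.4 CPM in the miR-10b doxycycline samples and 52.2, 51.5 and 51.4 CPM in the miR-10b control. The groups did not overlap, and IGFBP4 fell by 12.9% (log2 fold change -0.20, SE 0.061, edgeR adjusted p = 0.021). The miR-10a doxycycline samples had 46.2, 54.0 and 56.4 CPM and the miR-10a control 48.4, 52.2 and 51.5 CPM, with overlap and a log2 fold change of 0.04 (SE 0.060, adjusted p = 0.87). The effects of the vectors were not past the threshold for a difference (-0.24, SE 0.086, adjusted p = 0.16), except without miR-10a doxycycline replicate 1 (-0.32, adjusted p = 0.040). The fall with miR-10b kept its size but lost its call without miR-10b doxycycline replicate 3 (-0.17, adjusted p = 0.074) and without replicate 1, 2 or 3 of the miR-10b control (adjusted p = 0.058, 0.052 and 0.053), in a range over all alternatives from 0.011 to 0.074.

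**Figure D4:**
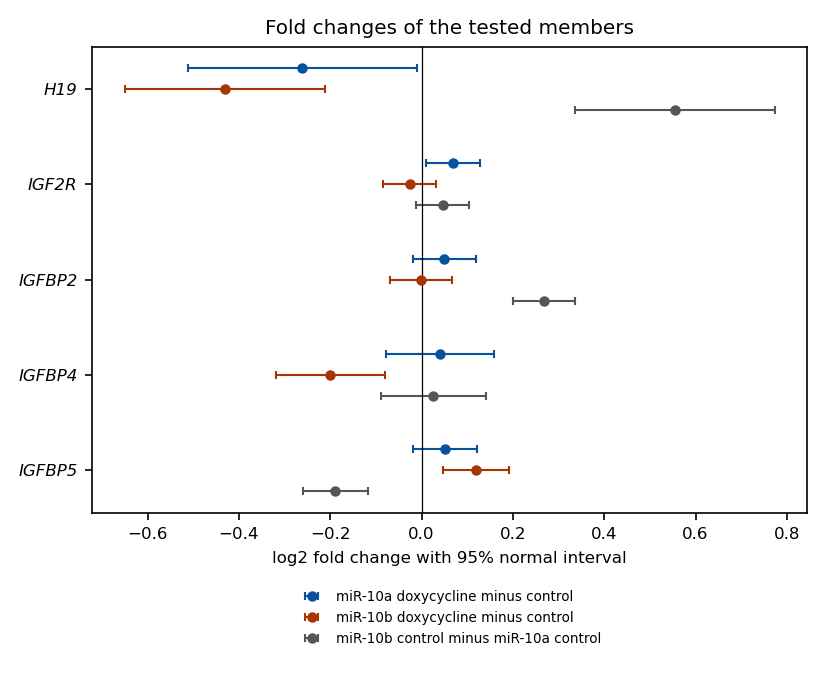
Log2 fold changes of the 5 tested members (points) with 95% normal intervals (not adjusted for the number of genes) for doxycycline against control with each vector and for the miR-10b control against the miR-10a control. With miR-10b, H19 (-0.43) and IGFBP4 (-0.20) lie below 0 and IGFBP5 (0.12) above it, and between the controls H19 (0.56) and IGFBP2 (0.27) lie above 0 and IGFBP5 (-0.19) below it.

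Over the tested members, doxycycline with miR-10a gave 0 calls of 5 by edgeR and 0 by DESeq2, with 2 at an unadjusted p under 0.05, where 1.21% of all 11451 genes were called (0.472% higher and 0.742% lower). With miR-10b, 3 of 5 were called, IGFBP5 higher and H19 and IGFBP4 lower, where 15.3% of all genes were called (8.18% higher and 7.15% lower); DESeq2 called IGFBP4 alone, the count was also 1 without miR-10b doxycycline replicate 3 (IGFBP5) and without replicate 2 or 3 of the miR-10b control (H19), and it was 2 without miR-10b doxycycline replicate 2. The split of all calls moved with the tool, from 937 higher and 819 lower to 498 higher and 808 lower under DESeq2 with miR-10b and from 54 higher and 85 lower to 36 higher and 93 lower with miR-10a. The difference between the vectors' effects was past the threshold for 0 of 5 members by edgeR and 0 by DESeq2, with 2 at an unadjusted p under 0.05 and 1.96% of all genes called. Between the controls 3 of 5 differed, H19 and IGFBP2 higher and IGFBP5 lower with the miR-10b vector, where 14.1% of all genes did (7.41% higher and 6.72% lower), and these 3 were called under every alternative run. The comparisons share their control samples, so their values are set side by side and not correlated.

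Summed markers of several cell types, progenitors among them, moved in the same samples as H19. The 6 progenitor genes had 11920 to 12040 CPM in the miR-10b control and 11480 to 11650 CPM with doxycycline. In the miR-10a control and doxycycline groups they had 10680 to 10750 and 10310 to 10670 CPM. The progenitor genes did not move together. With miR-10b, edgeR called NES and HES5 lower and MSI1 higher, and SOX2, VIM and FABP7 were not called. These calls are 50.0% of the 6, against 15.3% of all genes, and DESeq2 called 2. With doxycycline in miR-10b cells the neuron sum (3 of 6 genes tested) and the neural crest sum (1 of 6) were higher. edgeR called 1 gene of each and DESeq2 0. The neural crest sum was 4.74 to 5.23 CPM with and 3.34 to 3.85 without doxycycline. The floor plate and pluripotency sums overlapped. Of 7 tested floor plate genes CORIN alone was called, lower (-0.77, edgeR adjusted p = 6.3e-08). The floor plate sum was 1877 to 1908 CPM in the miR-10b control and 1332 to 1335 in the miR-10a control. There 5 of 7 were called higher with the miR-10b vector, against 7.41% of all genes. Summed over 11 mesenchymal and vascular genes, the level was 382 to 405 CPM in the miR-10b control and 323 to 343 CPM with doxycycline. It was 175 to 178 and 171 to 192 CPM in the miR-10a control and doxycycline groups. Of 8 tested genes, 0 were called higher and 2 (COL1A1 and COL3A1) lower with miR-10b, where 7.15% of all genes were called lower. The 8 endoderm and yolk sac genes had 13.5 to 14.9 CPM in the miR-10b control and 8.98 to 11.3 with doxycycline, against 5.08 to 7.07 and 4.98 to 6.13 CPM in the miR-10a control and doxycycline groups, and only 2 of them (TTR and APOA1, both lower with miR-10b) passed the filter. The 6 choroid plexus and roof plate genes had 70.1 to 77.5 CPM in the miR-10b control and 51.4 to 52.3 CPM with doxycycline. In the miR-10a control and doxycycline groups they had 49.9 to 51.9 and 42.9 to 44.7 CPM. TTR is counted in this list too, so the 2 sums are not separate. LMX1B was at 0 in every sample, but 1 gene of this list has several transcripts, and such a gene can be counted too low. The part of such cells in the values of H19, IGF2 and the binding proteins was not tested.

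Of 16 listed extracellular genes of the system, 10 were tested; with miR-10b, 3 were lower (PAPPA, STC2 and IGFBPL1) and 2 higher (LRP1 and LRP2), 50.0% of those tested where 15.3% of all genes were called (8.18% higher and 7.15% lower). The LRP2 call was lost in 9 of the 19 alternatives, among them TMM, DESeq2 and the fit of the miR-10b samples alone. With miR-10a, edgeR called 0 of the 10, with 4 at an unadjusted p under 0.05, where 1.21% of all genes were called. That 0 depends on the settings: PAPPA was called lower with miR-10a under TMM, DESeq2, no filter, the stricter filter and the replicate block, PAPPA (lower) and LRP2 (higher) in the fit of the miR-10a samples alone, and PAPPA, STC2 (both lower) and LRP2 (higher) without miR-10b doxycycline replicate 2. PAPPA was also called lower with miR-10a without miR-10b doxycycline replicate 3 or miR-10b control replicate 3, and STC2 without miR-10a doxycycline replicate 2. The median log2 fold change of the 10 was -0.13 with miR-10b and -0.099 with miR-10a, against 0.021 and 0.01 over all genes. PAPPA encodes a metalloprotease that cleaves IGFBP4 and so releases IGF, and STC2 encodes stanniocalcin-2, an inhibitor of that protease.

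PAPPA had 57.0, 59.2 and 59.7 CPM in the miR-10b doxycycline samples and 75.9, 76.0 and 69.2 CPM in their controls. In miR-10a cells it had 94.5, 88.9 and 91.9 CPM with doxycycline and 106, 103 and 100 CPM without it. For each vector, all doxycycline samples lay below all controls. The log2 fold change was -0.33 (SE 0.050, edgeR adjusted p = 7.9e-06) with miR-10b and -0.17 (SE 0.045, adjusted p = 0.051) with miR-10a. PAPPA was also lower in the miR-10b control than in the miR-10a control (-0.49, adjusted p = 1.8e-10), and its 3′UTR has a single 7mer-A1 match:
PAPPA, 7mer-A1, chr9:119162097-119162103, plus strand: ctttgaaaatgCAGGGTAtcagctgccac

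STC2 had 11.5, 12.5 and 12.2 CPM with doxycycline and 19.5, 17.4 and 17.5 CPM without it in miR-10b cells, a log2 fold change of -0.58 (SE 0.095, edgeR adjusted p = 2.4e-05). In miR-10a cells it had 13.1, 17.0 and 14.8 CPM with doxycycline and 18.40, 18.64 and 18.99 CPM without it (-0.31, SE 0.091, adjusted p = 0.083), again with every doxycycline sample below every control. The protease and its inhibitor were thus lower together with miR-10b, while the effects of the vectors did not pass the threshold for a difference in PAPPA (adjusted p = 0.28) or STC2 (adjusted p = 0.38). IGFBPL1, an IGFBP-like gene with 7mer-m8 matches, fell from 348 ± 8.72 to 314 ± 18.4 CPM (SD, n = 3 each, log2 fold change -0.15, adjusted p = 0.0034). LRP1, a large endocytic receptor, rose from 1378 ± 15.4 to 1517 ± 86.1 CPM (SD, n = 3 each, log2 fold change 0.14, adjusted p = 0.0055), and LRP2 (megalin), a related receptor, was the other gene that rose.

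Inside the cell, 29 of 46 listed signalling genes were tested, and with miR-10b 3 were lower (IRS1, PIK3CA and NRAS) and 2 higher (PIK3R1 and GRB14). These 5 are 17.2% of those tested, near the 15.3% called over all genes, so the count is not a result about the list. Without miR-10b doxycycline replicate 2 INPPL1, a lipid phosphatase gene, was called lower (as under TMM, DESeq2, no filter and without miR-10b control replicate 2, where PIK3R3 was also called higher) and GRB14 was not called. GRB14 was also lost under DESeq2 and without miR-10b control replicate 1 or 3. With miR-10a, edgeR called 0 of the 29 and DESeq2 0, with 7 at an unadjusted p under 0.05, and NRAS was called lower in the fit of the miR-10a samples alone and without miR-10b doxycycline replicate 2. The median log2 fold change of the 29 was 0.0057 with miR-10b. IRS1, the docking protein that links the IGF and insulin receptors to PI3K, had 447, 458 and 443 CPM with doxycycline and 518, 532 and 540 CPM without it in miR-10b cells. It fell by 15.2% there (log2 fold change -0.24, SE 0.032, edgeR adjusted p = 1.1e-06), against -0.07 (SE 0.033, adjusted p = 0.40) with miR-10a, where the values were 347, 331 and 359 CPM with and 363, 366 and 361 CPM without doxycycline. The samples did not overlap for either vector, and the difference of the effects was -0.165 (SE 0.046, edgeR adjusted p = 0.055).

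Among the listed and tested genes for subunits of PI3K, a catalytic and a regulatory subunit were called in opposite directions in miR-10b cells, and PIK3CB and PIK3R3 were not called. PIK3CA, a catalytic subunit, fell from 58.2 ± 2.14 to 47.7 ± 3.03 CPM (SD, n = 3 each, log2 fold change -0.29, edgeR adjusted p = 0.00054), and PIK3R1, a regulatory subunit, rose from 50.8 ± 2.83 to 59.7 ± 2.08 CPM (SD, n = 3 each, log2 fold change 0.23, adjusted p = 0.0021). PIK3R1 is read from 1 of its 4 transcripts, whereas the other genes of this kind given with values have a single transcript. With miR-10a PIK3CA and PIK3R1 had log2 fold changes of -0.15 and -0.03 (adjusted p = 0.25 and 0.92). The difference of the vectors' effects was not past the threshold for PIK3CA (-0.13, edgeR adjusted p = 0.52) or PIK3R1 (0.26, adjusted p = 0.076). GRB14, which was higher with miR-10b, encodes an adaptor that inhibits insulin receptor signalling.

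NRAS, a RAS GTPase of the MAPK branch, was the only one of these 29 genes for which edgeR called a difference between the vectors' effects. DESeq2 called 2 of the 29. NRAS is described here. It had 305, 284 and 315 CPM with and 394, 398 and 387 CPM without doxycycline in miR-10b cells, and 355, 379 and 376 CPM with and 399, 395 and 407 CPM without it in miR-10a cells. The log2 fold change was -0.38 (SE 0.036, edgeR adjusted p = 4.1e-10) with miR-10b and -0.11 (SE 0.035, adjusted p = 0.13) with miR-10a, and the difference was -0.27 (SE 0.050, adjusted p = 0.0012). The miR-10b doxycycline samples were the lowest, and doxycycline samples lay below the controls for each vector. Of the NRAS 3′UTR (3625 nt), only a 6mer was found.

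**Figure D5:**
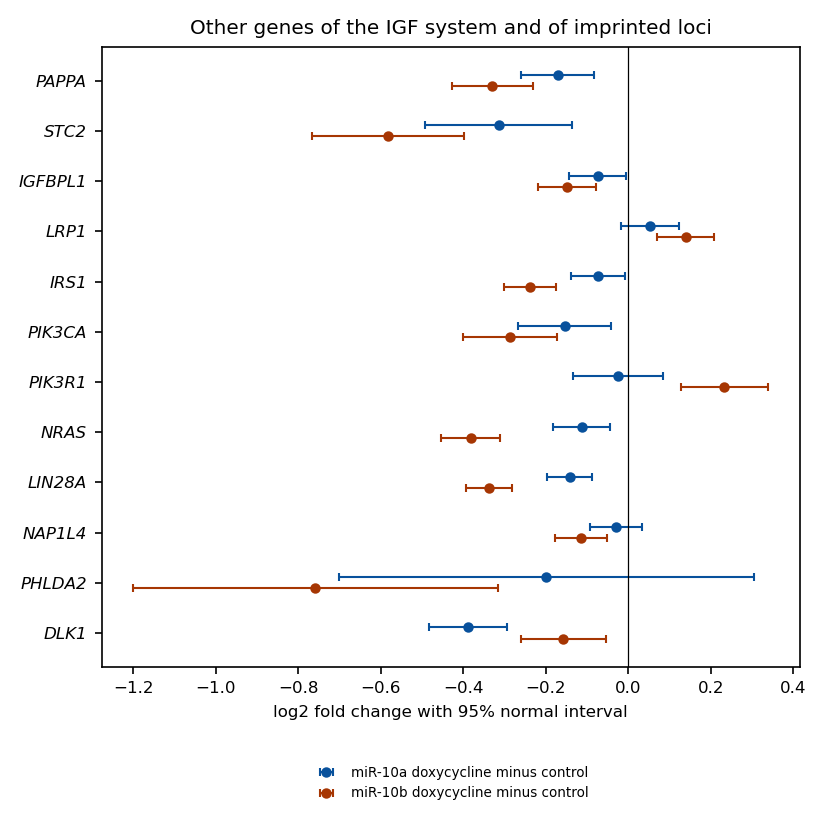
Log2 fold changes (points) with 95% normal intervals (not adjusted for the number of genes) for doxycycline against control with miR-10a and miR-10b, for 12 genes of the listed pathway and imprinted groups that passed the threshold with at least 1 vector. With miR-10b, PHLDA2 lies lowest (-0.76) and PIK3R1 highest (0.23), and DLK1 lies lower with miR-10a (-0.39) than with miR-10b (-0.16).

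Seed matches of 7 bases and the direction of change can be set side by side for these lists. The extracellular and intracellular genes that fell with miR-10b and have such a match are PAPPA, IGFBPL1, IRS1 and PIK3CA, and those that fell with at most a 6mer are STC2 and NRAS. These sites lie in the 3′UTRs of these intracellular genes and are shown because each of the genes fell:
IRS1, 7mer-m8, chr2:227596461-227596467, minus strand: acctcttggctACAGGGTgggccaaatta
PIK3CA, 7mer-m8, chr3:178952322-178952328, plus strand: tgtaaacgcaaACAGGGTttgatagcact

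Of 9 tested intracellular genes with an 8mer or 7mer match, 2 were lower and 0 higher with miR-10b, and of the 20 without one, 1 was lower and 2 higher. The only 8mers among the tested genes of the extracellular and intracellular lists lie in IRS4 and PHLPP2, and neither gene was called with miR-10b. Nor were PAPPA2, GRB2, PIK3CB, PIK3R3, INPPL1 and GSK3A called in the main fit, all of which have a 7mer. Over all these 9260 genes, 13.6% of 1955 with such a match and 6.49% of 7305 without one were lower with miR-10b, and 2.10% and 0.479% with miR-10a. IGF2R, with 4 matches, was not among them, and IGFBP4, which fell with miR-10b, has no match of 7 bases in that 3′UTR; the H19 transcript was not searched. None of the genes that rose (PIK3R1, GRB14, LRP1 and LRP2) has a match of 7 bases in its longest 3′UTR, although another annotated 3′UTR of LRP1 holds a 7mer-m8.

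Genes for proteins linked to IGF2 mRNA (the IGF2BP family, LIN28 proteins and HMGA2) and imprinted genes were followed as further groups. Of 7 listed genes of the first group, 6 were tested; with miR-10b LIN28A, LIN28B and HMGA2 were lower and 0 were higher (50.0% of those tested, against 15.3% of all genes), and with miR-10a LIN28A was lower, a call lost without miR-10a control replicate 3. Only LIN28A was called with miR-10b in the fit of those samples alone and without miR-10b doxycycline replicate 2 or miR-10b control replicate 2 or 3, and under TMM, DESeq2 and the stricter filter 4 were called, IGF2BP3 being the further gene. LIN28A, an RNA-binding protein of early progenitors, had log2 fold changes of -0.34 with miR-10b and -0.14 with miR-10a (edgeR adjusted p = 4.8e-11 and 0.0032), which differed (-0.20, SE 0.040, adjusted p = 0.0041). The longest 3′UTR of LIN28A has 1 7mer-m8 match. That of IGF2BP1, which was not called with doxycycline, has 1 7mer-m8 and 1 7mer-A1. Of 19 imprinted or neighbouring genes around IGF2 and H19, 7 were tested; with miR-10b PHLDA2 and NAP1L4 were lower and 0 were higher (28.6% of those tested, against 15.3% of all genes called and 7.15% lower). With miR-10a, edgeR and DESeq2 called 0, with 0 at an unadjusted p under 0.05. NAP1L4, a histone chaperone, fell from 481 ± 6.00 to 444 ± 15.6 CPM (SD, n = 3 each, log2 fold change -0.11, adjusted p = 0.013), a call lost without miR-10b control replicate 2. PHLDA2, a growth-restraining imprinted gene of the placenta, had 1.51, 1.29 and 1.41 CPM with and 2.70, 2.22 and 2.25 CPM without doxycycline in miR-10b cells, with no overlap and 13 to 34 counts per sample over all groups. Its log2 fold change was -0.76 (SE 0.23, edgeR adjusted p = 0.019) with miR-10b and -0.20 (SE 0.26, adjusted p = 0.86) with miR-10a; the call was lost without miR-10b doxycycline replicate 2 or miR-10b control replicate 1, and DESeq2 gave no adjusted p for it, in a range of adjusted p over its alternatives from 0.016 to 0.086.

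Of 20 imprinted genes elsewhere, 11 were tested and DLK1 alone was called, lower with each vector (9.09% of those tested, against 1.21% of all genes with miR-10a and 15.3% with miR-10b). DLK1, an imprinted non-canonical Notch ligand gene on chromosome 14, had 260, 273 and 260 CPM with and 335, 381 and 321 CPM without doxycycline in miR-10a cells. It had 151, 176 and 157 CPM with and 176, 192 and 172 CPM without doxycycline in miR-10b cells, where the samples overlapped. The log2 fold change was -0.39 (SE 0.049, edgeR adjusted p = 3.3e-06) with miR-10a and -0.16 (SE 0.053, adjusted p = 0.038) with miR-10b, and the latter call was lost under DESeq2 and without replicate 1 or 3 of the miR-10b doxycycline group or replicate 1 or 2 of its control (adjusted p up to 0.26). The difference of the effects was 0.23 (SE 0.072, adjusted p = 0.093). Between the controls DLK1 was lower with the miR-10b vector (345 ± 31.3 and 180 ± 10.7 CPM, SD, n = 3 each, log2 difference -0.94, adjusted p = 3.2e-17).

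The genes whose pattern over the 12 samples was most like that of each member were read from Pearson's r of log2(CPM + 0.5), as a description only, since the 12 points share their groups and scaling. For IGF2 they were MTURN, SPATA33 and MIR4461 (r = 0.926, 0.908 and 0.882), for H19 NES, PLOD2 and MIR210HG (0.918, 0.901 and 0.876), and for IGF2R LANCL2, PRR19 and IPO9 (0.861, 0.856 and 0.826). For IGFBP2 they were HSPB1, H1FX and ARHGAP24 (r = 0.989, 0.967 and 0.962), for IGFBP4 SETD9, RASAL2-AS1 and PLGRKT (0.884, 0.874 and 0.872), and for IGFBP5 CNTNAP2, DHODH and CA14 (0.957, 0.936 and 0.927). No member appeared among the closest genes of another member.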

How the data were processed

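RNA was extracted from 12 samples, and polyadenylated RNA was sequenced as 50-bp single-end reads. The authors mapped the reads to hg19 and deposited raw read counts per RefSeq transcript, 1 table per sample (the submitters' processing notes name STAR, Subread and featureCounts; versions are not given in the sources used here). Each deposited count table held 51799 rows for 48101 transcripts, and 3698 repeated rows were dropped. Genes with 1 transcript held 92.84% of the counts, as reads shared by transcripts appear to have been left out.

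For display, each count was divided by its sample total (CPM). Genes with a mean above 10 counts were tested in a single edgeR 4.0.16 quasi-likelihood fit of the 4 groups (R 4.3.3) with total counts as library sizes. p-values were adjusted (Benjamini-Hochberg) over all 11451 genes, with a threshold of 0.05; exact permutation over 3 against 3 samples cannot go below 0.1. The fit was tested on simulated data. Intervals are 95% and either exact Poisson or normal (from the fitted SE).

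A withheld item is not reported here and was taken out of the lists and their counts. The members, the gene lists and the tests were chosen with earlier results of these data known. All 10 members are named; of the genes of the pathway, mRNA-binding and imprinted lists past the threshold in a doxycycline comparison (16), values are given for the 12 with the smallest adjusted p, and for each member above the filter the 3 genes of highest r are named. Alternatives were trimmed-mean (TMM) normalization, DESeq2 1.42.0, no filter, a mean above 50 counts, a replicate block, counts summed over transcripts, a fit of 1 vector alone and each sample left out. Seed matches were read from GENCODE 44 3′UTRs on GRCh37 (= hg19), and the miR-10a-5p sequence from RefSeq.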

Additional observations from a re-analysis of the deposited data

Results flagged for a closer look

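For 2 of the genes described above, the effect of doxycycline differed between the vectors by the test of the difference itself (edgeR quasi-likelihood test, Benjamini-Hochberg adjusted over all genes). For NRAS the effect with miR-10b minus that with miR-10a was -0.27 on the log2 scale (SE 0.050, adjusted p = 0.0012), with all 3 doxycycline samples below all 3 controls for each vector. For LIN28A it was -0.195 (SE 0.040, adjusted p = 0.0041), again with all doxycycline samples below all controls for each vector. Both differences were past the threshold under each of the 18 alternatives run, with adjusted p of 1.8e-05 to 0.0078 for NRAS and 8e-05 to 0.029 for LIN28A. MIR10B reads were more abundant than MIR10A reads after induction (2619 ± 67.5 and 724 ± 10.8 CPM, SD, n = 3 each), and the part of that level in these differences was not tested. None of the 5 tested members passed this test in the fit of all samples. Groups of 3 samples are too small for the test of outlying samples, which was not run.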

How the results depend on the processing

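The 4 counts of members called had 74 alternatives and were equal or close in 69, where 2 members in place of 3 was scored as close. That held with miR-10b in the fit of those samples alone and without miR-10b doxycycline replicate 2 or miR-10b control replicate 1. With miR-10b, 3 members changed with doxycycline, and 1 did under DESeq2 (IGFBP4); leaving out each sample gave 1 to 3. The difference between the vectors' effects, 0 members, gave 0 to 1 with each sample left out (IGFBP4 without miR-10a doxycycline replicate 1). Directions turned only for values near 0 when a sample was left out. IGFBP2 with miR-10b then ranged from -0.048 to 0.028, and was above 0 (0.016, 0.028 and 0.013) without miR-10b doxycycline replicate 1 or 3 or miR-10b control replicate 3. IGFBP4 with miR-10a ranged from -0.016 (without miR-10a doxycycline replicate 3) to 0.12, and between the controls from -0.0060 (without miR-10a control replicate 1) to 0.049. The cause was not tested. In these leave-one-out fits a pair of samples remains in 1 group.

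IGF2 ranged from -1.69 to -0.91 with miR-10a and from -0.88 to -0.69 with miR-10b, without the stricter filter, under which it is not tested. Over all genes, calls with miR-10a (139) were 272 in the fit of that vector alone and 78 to 268 with each sample left out, the highest without miR-10b doxycycline replicate 2. Calls for the difference between the vectors' effects (224) were 343 with no filter and 140 to 340 with each sample left out. Calls for the difference had 66 higher and 158 lower, and under DESeq2 22 higher and 165 lower. The replicate block gave 3 members with miR-10b and changed no other call of a member; same-numbered samples did not deviate together (r from -0.032 to 0.0082 over 6 pairs), so the numbers do not pair the samples. For the 12 named genes of the lists, whose alternatives were added after seeing the data, directions did not change; calls were lost for DLK1 and PHLDA2 with miR-10b as given above, for LIN28A with miR-10a without miR-10a control replicate 3 (adjusted p = 0.052) and for NAP1L4 with miR-10b without miR-10b control replicate 2 (adjusted p = 0.056). Members with a 7-base match or longer numbered 3 with the longest or any annotated 3′UTR. Depth limits IGF2, IGFBP6, IGFBP1, IGF1R and IGFBP3.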
